A study of Drosophila melanogaster with 6 samples.

Results

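The genes of the synapse and of neurons in general were followed in the wing of *Drosophila melanogaster*, in control flies and in flies mutant for Poxn, whose wings lack chemosensory sensilla. The set comprised 32 genes, chosen by symbol as pan-neuronal genes or genes of the synaptic vesicle cycle, and all 32 were among the 17476 genes in the count files. RNA was sequenced from hand-dissected wings of flies aged 3 days, with 3 libraries from w1118 Canton-S flies, the control, and 3 from Poxn 70 flies, a mutant allele that had been backcrossed to the same w1118 Canton-S line. The labels give 8000 wings from 4000 flies for each library, but the study's text also gives a differing total, so the number of wings in each pool is uncertain. The sex of the flies is not stated. The question addressed here was whether wings without chemosensory sensilla differed in the transcripts that neurons share.

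The cell bodies of the sensory neurons of the fly wing lie in the wing itself, under the bristles of the anterior margin and along the veins, and their axons form synapses in the thoracic ganglia. Transcripts for synaptic proteins are made in these cell bodies, so the machinery of a distant synapse can be read in wing RNA. A chemosensory bristle of the wing carries several taste neurons and a mechanosensory neuron, a mechanosensory bristle carries a single neuron, and in Poxn mutants chemosensory bristles take on mechanosensory form. Release of transmitter uses SNARE proteins on vesicle and plasma membrane, chaperones that assemble and take apart the SNARE complex, calcium sensors, scaffolds of the active zone where vesicles dock, and clathrin-based endocytosis that recovers the membrane. The epithelium of the wing largely dies after eclosion, leaving nerves, tracheae, hemolymph cells and cuticle.

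Counts on genes ran from 10074860 to 14269486 in the control-labelled libraries and from 14021115 to 16182811 in the Poxn-labelled ones. Levels are given as CPM, counts scaled to a common library size after TMM normalisation, a factor per library that sets most genes to a common level. The factors ran from 0.246 to 1.28 in the control-labelled libraries and from 1.76 to 1.86 in the Poxn-labelled ones, so the choice of scaling matters for every direction given here. The Poxn transcript itself had 0, 6 and 3 counts in the control-labelled libraries and 92, 86 and 85 in the Poxn-labelled ones, which goes against the labels if the allele removes the transcript. Sensory channel genes, chosen with their values known, ran the way the labels say of wings without chemosensory sensilla. The pickpocket gene ppk23, a channel subunit of taste neurons, had 272, 195 and 890 counts against 1, 0 and 0, and ppk29, another such subunit, had 78, 120 and 620 against 7, 7 and 11. The receptor gene Ir52a was less clear, with 1, 32 and 34 counts against 2, 0 and 0, too few to be tested. Its count in control replicate 1 was not above that in Poxn replicate 1. Each direction below follows the labels. Genes for wing identity were present in every library, with all 5 of 5 listed genes tested and summed levels of 91.3 to 143 CPM in the control-labelled libraries and 113 to 124 CPM in the Poxn-labelled ones. Of 6 photoreceptor and head genes, the rhodopsin genes ninaE, Rh3 and Rh4 had at most 2 counts in any library, while norpA had 294 to 981. Over the tested genes, log2 levels correlated with r from 0.833 to 0.921 between control-labelled libraries and from 0.975 to 0.983 between Poxn-labelled ones, a description across genes. Between the groups r ran from 0.779 to 0.892. Control replicate 3 correlated more closely with Poxn replicates 1 to 3 (0.892, 0.869 and 0.876) than with control replicate 2 (0.833). The median range over 3 libraries was 1.07 on the log2 scale for the synaptic genes in the control-labelled libraries and 0.35 in the Poxn-labelled ones, beside 1.49 and 0.40 for all tested genes.

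With TMM scaling the synaptic and pan-neuronal genes had a median difference near that of all genes, and single genes lay in both directions. Of the 31 genes with enough counts to be tested, fne, a neuronal RNA-binding protein gene, was higher in the control-labelled libraries, and comt, a gene for an ATPase that takes SNARE complexes apart, was higher in the Poxn-labelled ones (adjusted p under 0.05, edgeR's quasi-likelihood test). Among the 8973 tested genes, the same rule called 4.95% as higher in the control-labelled libraries and 2.69% as higher in the Poxn-labelled ones, so 1 of 31 in each direction is near this background. At the criterion of the study, over 4-fold and an adjusted p under 0.01, 0 of the 31 genes were called, beside 0.602% and 0.0557% of all tested genes, while DESeq2 put 1 gene (futsch, toward the control label) past it, beside 7.56% and 0.741% of all genes in DESeq2. The median log2 fold change, control minus Poxn, was −0.02 over the 31 genes and −0.01 over all tested genes, with 15 of the 31 above 0 and 16 below.

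At an unadjusted p under 0.05, edgeR gave 7 genes (22.6%) higher in the control-labelled libraries and 8 (25.8%) higher in the Poxn-labelled ones, beside 17.8% and 14.1% of all tested genes. DESeq2 called 6 and 5 of the 31 genes at an adjusted p under 0.05, beside 16.8% and 8.08% of all genes it tested. In 8 genes all 3 control-labelled libraries lay above all 3 labelled Poxn, and in 8 genes the order was the opposite, 25.8% in each direction, beside 17.9% and 22.5% of all tested genes. Nlg1 is among the 8 toward the Poxn label in both this order and edgeR's unadjusted p. It had enough counts to be tested only through the Poxn-labelled libraries. Both calls of edgeR were lost without control replicate 1, where 1.86% and 0.638% of all genes were called. They were also lost without any of the Poxn replicates, where 0.427% to 0.545% and 0.0328% to 0.0438% of all genes were called. In those 3 fits the log2 fold change was 1.41 to 1.59 for fne and −1.77 to −1.54 for comt. Without control replicate 2 the calls numbered 5 and 9, beside 16.1% and 12% of all genes tested in that fit. In bulk wings, fewer neurons and less RNA per neuron cannot be told apart. An exact permutation test of 3 libraries against 3 could not give a p below 0.1.

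**Figure D1:**
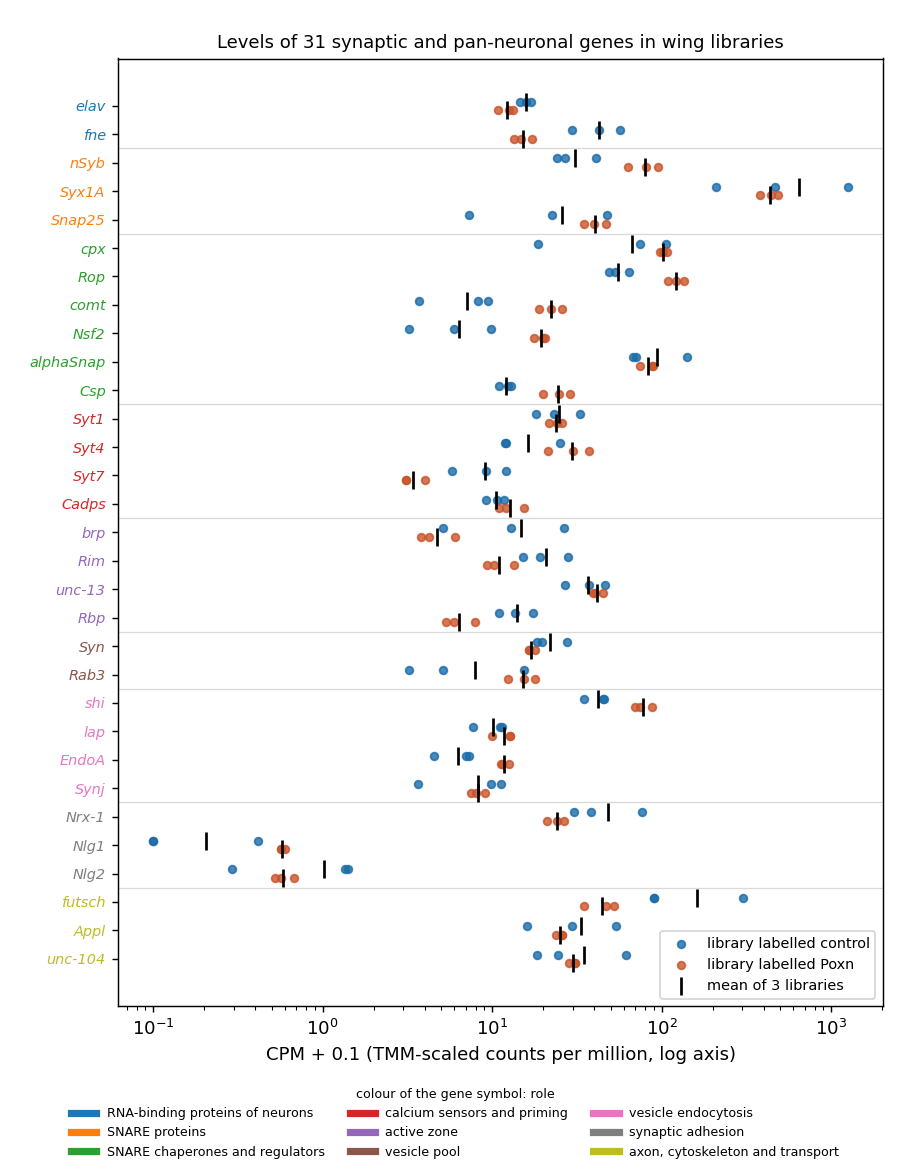
Levels of the 31 tested genes in CPM + 0.1 on a log axis, 1 row per gene, with a point for each of the 3 control-labelled libraries (blue) and the 3 Poxn-labelled ones (orange) and a black tick at each mean. The points of the Poxn label lie close together, the points of the control label spread further, and on this TMM scale fne and comt separate in opposite directions.

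Scaled by total counts alone, the median of all tested genes moved from −0.01 to −1.39 and that of the 31 genes to −1.76. The synaptic genes took 0.0585%, 0.0540% and 0.147% of the counts in control-labelled replicates 1 to 3 and 0.238%, 0.260% and 0.245% in Poxn-labelled replicates 1 to 3. Syx1A alone made up 4002 of 7575, 1107 of 5443 and 8511 of 20956 of these counts in the control-labelled libraries. In the Poxn-labelled ones it made up 13528 of 37561, 13217 of 42034 and 9952 of 34307. On this scale 30 of the 31 log2 fold changes were below 0, all except Syt7, beside 7919 of 8973 for all tested genes. Every direction toward the control label given for the other genes of the set thus holds with TMM factors and flips with total counts. In 23 genes all 3 Poxn-labelled libraries lay above all 3 control-labelled ones with total counts and in 0 below, beside 57.8% and 2.72% of all tested genes. Relative to all genes, 19 of the 31 lay below the median and 12 above it. The smallest genes stood beside this shift, since transcripts under 600 nt took 30.6%, 20.6% and 16.6% of the counts in the control-labelled libraries and between 5.68% and 7.03% in the Poxn-labelled ones. In each library the median of the synaptic genes was set beside that of all genes, as a log2 ratio to the mean over the 6 libraries. The synaptic genes stood 0.34 above all genes in control replicate 1, 0.10 above them in control replicate 2 and at −0.34 in control replicate 3. The Poxn libraries lay between −0.02 and −0.04. The 3 control libraries thus fell on both sides of all 3 Poxn libraries.

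The neuronal RNA-binding proteins elav and fne belong to one family, and elav, which marks neurons in flies, guides alternative splicing and the choice of 3' ends. Levels of elav (FBgn0260400; X, 509235 to 523226, reverse strand, release 6 assembly) were 15.7, 16.9 and 14.5 CPM in the control-labelled libraries and 13.3, 10.8 and 12.5 CPM in the Poxn-labelled ones. The 2 sets did not overlap, but the log2 fold change of 0.37 ± 0.29 (SE) did not pass the test (adjusted p = 0.418, edgeR). Levels of fne (FBgn0086675; X, 12917477 to 12950417, forward strand) were 56.6, 42.4 and 29.5 CPM against 17.2, 13.4 and 14.8 CPM. Each control-labelled library held more fne than each Poxn-labelled library, with a mean of 42.8 ± 13.6 against 15.1 ± 1.89 CPM (SD, n = 3 each), and the log2 fold change was 1.50 ± 0.35 (SE, edgeR adjusted p = 0.0417, between 0.000669 and 0.895 across the alternatives). The upper end of that range came from total-count scaling, where the log2 fold change of fne was −0.16 beside −1.39 for all genes.

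The SNARE proteins gave 3 different pictures. nSyb (FBgn0013342; 3L, 1630348 to 1637752, reverse strand), the neuronal vesicle SNARE synaptobrevin, stood at 26.7, 24.2 and 40.8 CPM in the control-labelled libraries and at 63.3, 95.1 and 80.9 CPM in the Poxn-labelled ones. The groups did not overlap, and its log2 fold change of −1.38 ± 0.36 (SE) missed the threshold (adjusted p = 0.0523, edgeR). Syx1A, the plasma membrane syntaxin that cells of many types use, was the most abundant of the 31 genes, at 1258, 211 and 467 CPM against 488, 440 and 381 CPM. Its control libraries lay on both sides of the Poxn ones, with a log2 fold change of 0.56 ± 0.69 (SE), and of −0.37 without control replicate 1. Snap25, the partner of both in the complex, had 47.8, 7.23 and 22.6 CPM against 34.8, 46.7 and 39.6 CPM. Control replicate 2 was low for Snap25, and the groups overlapped.

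Chaperones and regulators of the SNARE complex had the lowest median of the role groups with more than 3 genes, −1.08 over 6 genes, 5 of them below 0, or −2.53 with total counts, where all genes had −1.39. comt (FBgn0000346; X, 13259021 to 13262488, forward strand) had 8.18, 3.62 and 9.38 CPM in the control-labelled libraries and 18.7, 22.3 and 25.8 CPM in the Poxn-labelled ones. It was 3.13-fold higher in the Poxn-labelled libraries, a log2 fold change of −1.65 ± 0.41 (SE, edgeR adjusted p = 0.0476, between 0.00769 and 0.241 across the alternatives). Nsf2, its close relative with the same activity, had 3.14, 5.90 and 9.71 CPM against 20.5, 19.9 and 17.6 CPM, and its log2 fold change of −1.58 ± 0.42 (SE) missed the threshold (adjusted p = 0.0543, edgeR). The pair of paralogs thus had similar levels and similar differences. Their counts are uncertain where near-identical stretches exist, since reads with several alignments were left out of the gene counts. Within a library, comt counts were 2.60, 0.613 and 0.966 times those of Nsf2 in the control-labelled libraries and 0.914, 1.12 and 1.47 times in the Poxn-labelled ones, so that this ratio overlapped between the groups.

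Rop, a Sec1/Munc18 protein that binds syntaxin, had 49.1, 64.0 and 53.4 CPM in the control-labelled libraries and 109, 135 and 121 CPM in the Poxn-labelled ones. The groups stood well apart, with a log2 fold change of −1.14 ± 0.33 (SE, edgeR adjusted p = 0.0646). Csp, the cysteine string protein that keeps Snap25 folded, had 12.9, 12.4 and 10.9 CPM against 19.8, 28.6 and 24.6 CPM, again without overlap, and a log2 fold change of −1.02 ± 0.31 (SE, edgeR adjusted p = 0.0697). The adaptor alphaSnap, which brings NSF to the complex, had 142, 67.6 and 71.0 CPM against 74.2, 88.1 and 88.4 CPM. Its groups overlapped, and so did those of cpx, the complexin gene, at 106, 18.7 and 74.6 CPM against 97.3, 108 and 102 CPM. In cpx, as in Snap25, control replicate 2 stood below the other 5 libraries. Of the 6 genes in this role, comt passed the test.

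**Figure D2:**
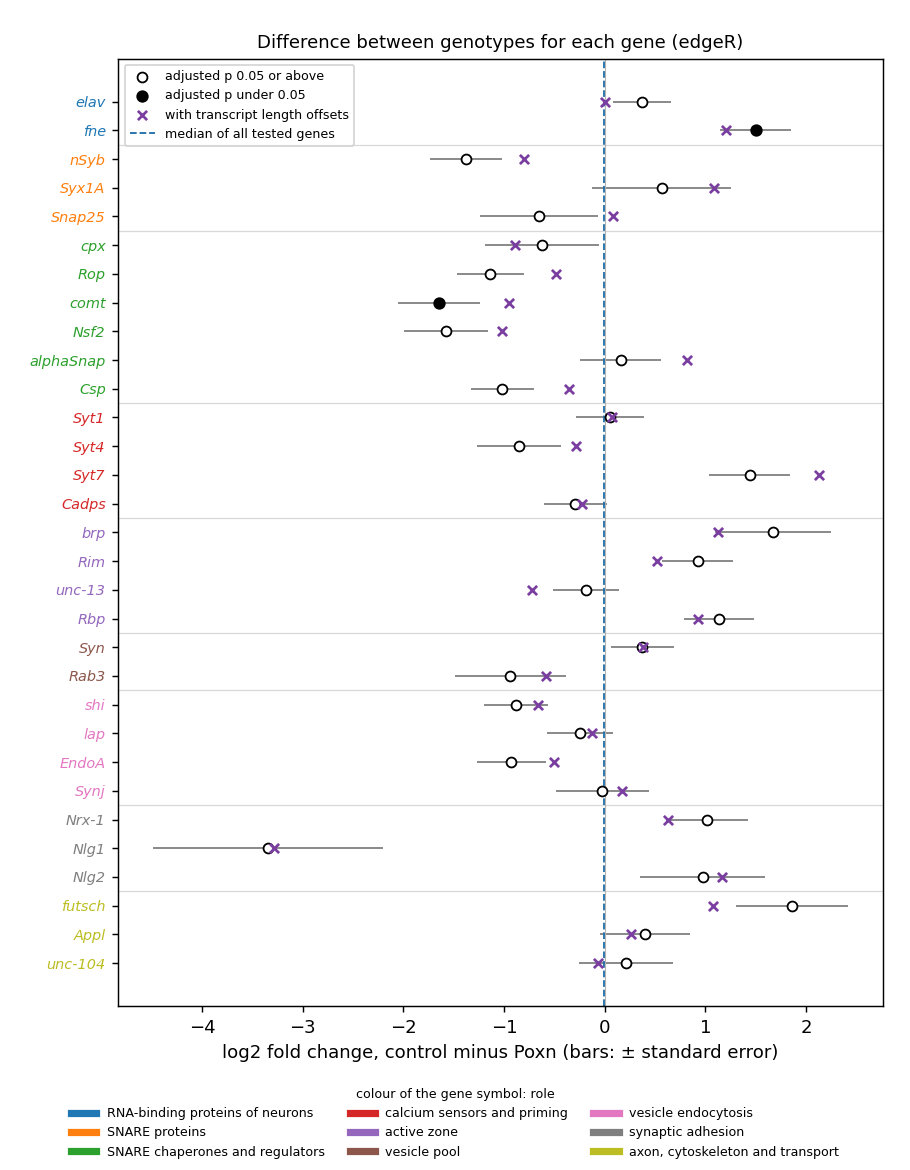
Log2 fold change of each gene, control minus Poxn, with bars of ± 1 standard error, filled where the adjusted p was under 0.05, and crosses for the fit with transcript length offsets. The dashed line at −0.01 is the median of all tested genes, and only fne (1.50, or −0.16 with total counts) and comt (−1.65) are filled.

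Among the calcium sensors, Syt1, the synaptotagmin that triggers fast release, showed no difference beyond its spread, with 33.0, 23.2 and 18.1 CPM in the control-labelled libraries and 25.9, 21.7 and 24.0 CPM in the Poxn-labelled ones. Its log2 fold change was 0.05 with a standard error of 0.34. Syt7 (FBgn0039900; chromosome 4, 278685 to 306481, reverse strand), a sensor with high affinity for calcium, had 9.12, 5.71 and 12.0 CPM against 3.03, 3.92 and 2.99 CPM. The groups of Syt7 did not overlap, and its log2 fold change of 1.44 ± 0.40 (SE) missed the threshold (adjusted p = 0.0583, edgeR). Syt4, known in flies for retrograde signals from muscle, had 11.9, 25.1 and 11.8 CPM against 21.2, 37.1 and 30.1 CPM, with overlapping groups. Cadps, which primes dense core vesicles, had 10.5 ± 1.28 CPM against 12.7 ± 2.35 CPM (SD, n = 3 each), also with overlap.

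Active zone scaffolds leaned the other way from the SNARE chaperones, with a median log2 fold change of 1.03 over 4 genes, although the median was −0.47 with total counts, where all genes had −1.39. In edgeR 0 of the 4 passed the test and 3 had an unadjusted p under 0.05, beside 17.8% of all tested genes toward the control label. DESeq2 called brp, Rim and Rbp, beside 16.8%. The 4 genes had at least 9119 nt of merged exon, and the chaperones except cpx at most 3521 nt, so role and length largely go together. With offsets for transcript length the medians were 0.72 and −0.69. The adjusted p of brp, Rim and Rbp were then 0.196, 0.365 and 0.149 (edgeR with offsets). brp, the Bruchpilot gene of the T-bar, had 12.9, 26.5 and 5.05 CPM in the control-labelled libraries and 5.98, 4.12 and 3.72 CPM in the Poxn-labelled ones. Control replicate 3 fell among the Poxn libraries, and the log2 fold change of 1.67 ± 0.58 (SE, edgeR adjusted p = 0.0917) was 0.88 without control replicate 2. Rbp, the RIM-binding protein that ties calcium channels to release sites, had 17.3, 10.9 and 13.5 CPM against 7.78, 5.22 and 5.90 CPM. Rim, its partner in the scaffold, had 28.0, 15.2 and 19.1 CPM against 13.4, 10.1 and 9.20 CPM. Both Rbp and Rim had groups that did not overlap, with log2 fold changes of 1.13 and 0.92 and adjusted p of 0.0693 and 0.116 (edgeR). The fourth gene, unc-13, which opens syntaxin for fusion, had 36.7 ± 9.57 CPM against 41.7 ± 3.23 CPM (SD, n = 3 each) and overlapped.

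For the vesicle pool, the phosphoprotein gene Syn had 19.5, 27.6 and 18.4 CPM in the control-labelled libraries against 16.4, 16.4 and 17.8 CPM, and the small GTPase gene Rab3 had 3.14, 15.4 and 5.05 CPM against 12.4, 17.7 and 15.3 CPM. The libraries of Syn did not overlap and those of Rab3 did, and neither gene passed the test. The genes of vesicle endocytosis had log2 fold changes from −0.93 to −0.02. shi, the dynamin that pinches vesicles off, had 45.9, 44.9 and 34.9 CPM against 74.1, 69.7 and 88.2 CPM (adjusted p = 0.0994, edgeR), and EndoA, the endophilin that bends the membrane, had 6.92, 7.23 and 4.44 CPM against 11.2, 12.4 and 11.3 CPM (adjusted p = 0.105, edgeR). In both, every Poxn-labelled library lay above every control-labelled library. The clathrin adaptor lap (AP180) and the lipid phosphatase Synj had overlapping groups, lap between 7.62 and 11.3 CPM against 9.91 to 12.7 CPM and Synj at 9.75, 11.2 and 3.57 CPM against 7.42, 7.95 and 9.05 CPM.

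The endocytic gene stnB was listed at 0 in all 6 libraries. All 8332 exonic bases of stnB lie within exons of stnA on the same strand, and stnA was listed at 0 as well, so its level cannot be read from these counts. Smaller stretches of exon were shared with neighbours by other genes of the set. The longest were 2994 bases of elav with a noncoding RNA gene and 1186 bases of futsch with Gr2a on the same strand, and 5696 bases of unc-13 with genes on the opposite strand.

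Of the adhesion genes, Nrx-1, the presynaptic neurexin, had 38.4, 76.3 and 30.4 CPM in the control-labelled libraries and 26.6, 24.0 and 21.1 CPM in the Poxn-labelled ones. The groups did not overlap, and the log2 fold change of 1.02 ± 0.41 (SE, edgeR adjusted p = 0.128) was 0.51 without control replicate 2. Its partners on the receiving cell were scarce. Nlg1 had 1, 0 and 0 counts against 13, 14 and 13 counts, a ratio of 12.7 in favour of the Poxn-labelled libraries with an exact 95% counting interval from 2.15 to 514, which covers counting error only. Its log2 fold change of −3.35 ± 1.14 (SE) did not pass the test (adjusted p = 0.0889, edgeR). Nlg1 had enough counts to be tested only through the Poxn-labelled libraries, so these values give no separate support for its direction. The 1 count in control replicate 1 made 0.314 CPM, beside 0.466 to 0.498 CPM in the Poxn-labelled libraries. Nlg2 had 4, 1 and 24 counts against 16, 14 and 11 counts and overlapped.

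The cytoskeletal gene futsch (FBgn0259108; X, 1409069 to 1453686, forward strand), a MAP1B-like protein that binds microtubules in axons, had 304, 89.7 and 90.5 CPM in the control-labelled libraries and 52.1, 34.8 and 46.7 CPM in the Poxn-labelled ones. All 3 control libraries lay above the Poxn ones, control replicate 1 by far the most, and the log2 fold change of 1.86 ± 0.56 (SE, edgeR adjusted p = 0.0671) was 1.01 without that library. Appl, the fly homologue of the amyloid precursor protein, had 29.6, 54.1 and 16.0 CPM against 23.8, 25.9 and 25.7 CPM. unc-104, a kinesin that carries vesicle precursors along axons, had 24.5, 61.5 and 18.4 CPM against 30.7, 28.4 and 30.9 CPM. Both had a high value in control replicate 2 and overlapped.

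Per kilobase of merged exon, the order of levels was led by Syx1A, with 155 ± 131 CPM per kb in the control-labelled libraries and 105 ± 12.8 in the Poxn-labelled ones (SD, n = 3 each). It stood above alphaSnap in each of the 6 libraries. In the control-labelled libraries alphaSnap followed with 45.1 ± 20.2 CPM per kb, ahead of Rop with 21.0 ± 2.91. In the Poxn-labelled libraries Rop came before alphaSnap, at 46.2 ± 5.01 and 40.4 ± 3.91 CPM per kb, and the order held in 3 of 3 libraries although the ranges of the genes overlapped. These 3 are genes of membrane traffic in many cells. nSyb came next in the Poxn-labelled libraries, with 19.6 ± 3.90 CPM per kb, beside 17.7 ± 2.61 for Snap25, again in this order in 3 of 3 libraries with overlapping ranges. At the low end, above the neuroligin genes, brp had 1.11 ± 0.811 and 0.345 ± 0.0903 CPM per kb, and Rim with 1.46 ± 0.459 and Rbp with 1.52 ± 0.355 in the control-labelled libraries were close to it, the order changing between libraries. By mean, elav with 1.47 ± 0.112 and EndoA with 1.49 ± 0.368 lay between Rim and Rbp in the control-labelled libraries.

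Because the scaling of libraries moved every gene, the genes were also compared inside each library, as the log2 level relative to the median of the 31. No library size or TMM factor enters this measure. Each library was centred on the median of the set itself, which by construction places genes on both sides of it. In 9 genes (29.0%) all control-labelled libraries lay above all labelled Poxn, and in 7 (22.6%) below, beside 22.5% and 15.3% of all tested genes on the same measure. The first group held fne, elav, Syt7, brp, Rim, Rbp, Syn, Nrx-1 and futsch, and the second nSyb, Rop, comt, Nsf2, Csp, shi and EndoA. The others overlapped. Relative to the median gene of the set, fne stood at 1.53, 1.18 and 0.88 in the control-labelled libraries and at −0.21, −0.69 and −0.51 in the Poxn-labelled ones.

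Ratios of 2 genes were chosen after their values were seen, so they restate the differences above and add no separate support. Counts of fne were 2.12, 1.76 and 0.722 times those of nSyb in the control-labelled libraries and 0.271, 0.141 and 0.182 times in the Poxn-labelled ones. The 2 sets of libraries were apart by 2.86 on the log2 scale. Between the 2 related genes, fne and elav, the ratio was 3.60, 2.51 and 2.03 against 1.29, 1.25 and 1.18, a difference of 1.09 without overlap. By contrast Snap25 had 1.79, 0.299 and 0.554 times the counts of nSyb against 0.550, 0.491 and 0.490 times, and these ratios overlapped.

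**Figure D3:**
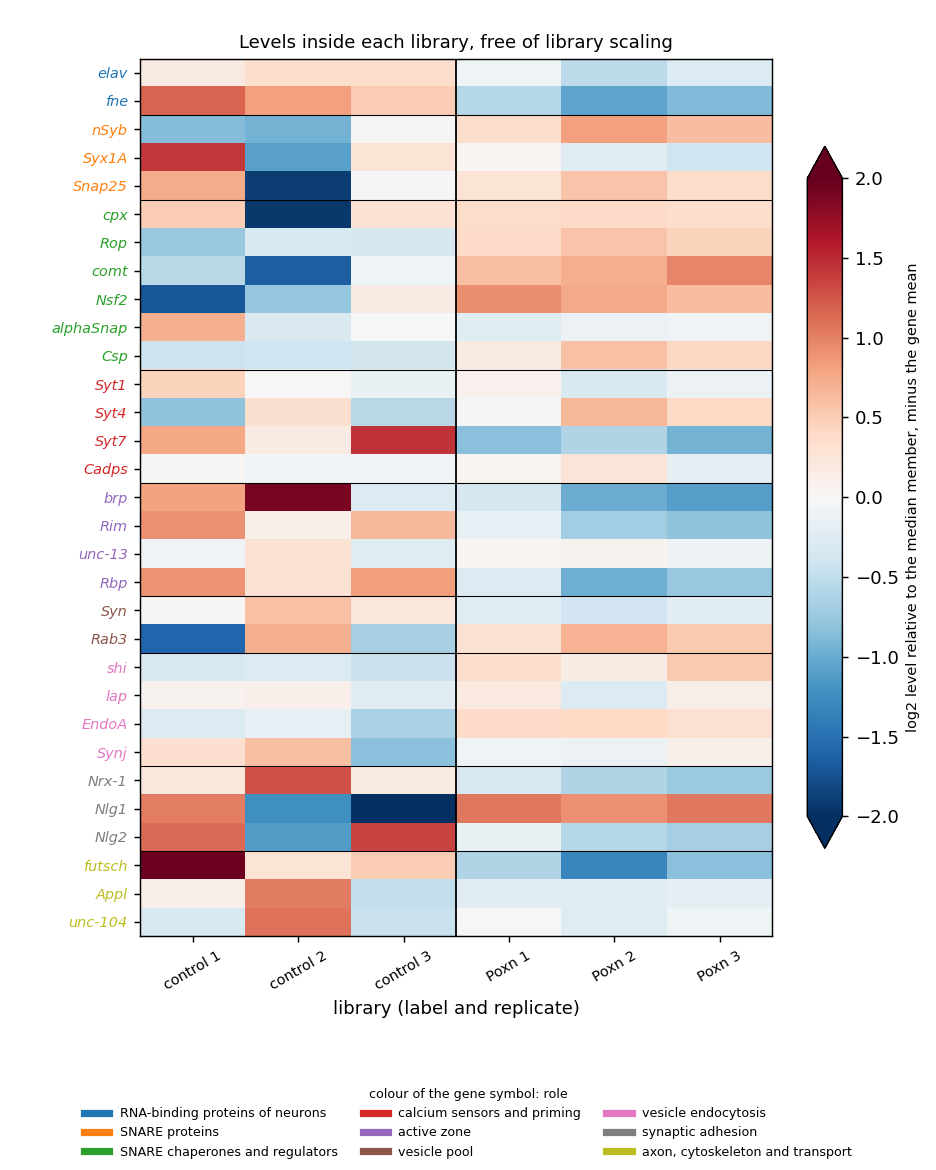
Heat map of log2 levels relative to the median gene of the set in each library, minus the mean of each gene over the 6 libraries, with the 3 control-labelled libraries on the left and the 3 Poxn-labelled ones on the right. Red marks high and blue low, and fne, Rim, Rbp and futsch are red on the left while nSyb, Rop, comt and EndoA turn redder on the right.

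On the TMM scale the direction of the difference moved with the length of the gene. The 10 genes with at least 8000 nt of merged exon had a median log2 fold change of 0.97, with 8 of 10 above 0, and the 9 genes under 4000 nt had a median of −0.94, with 2 of 9 above 0. Over the 31 genes, log2 length and log2 fold change gave Pearson's r = 0.49 and Spearman's rho = 0.56, as a description across genes that share the same 6 libraries. Over 8841 tested genes with a length the values were −0.26 and −0.29. All tested genes of at least 8000 nt had a median of 0.38 and those under 4000 nt a median of −0.02. The median of the long synaptic genes was thus above, and that of the short ones below, the median of their length class.

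With offsets that take out the trend with transcript length in each library, r over the 31 genes was 0.14 and rho 0.22. The log2 fold changes of fne and futsch became 1.20 and 1.08, and those of comt, Nsf2 and nSyb became −0.95, −1.02 and −0.80. Neither fne nor comt passed the test in this fit (adjusted p = 0.0742 and 0.241, edgeR with offsets), while Syt7, which is short, did, with a log2 fold change of 2.13 (adjusted p = 0.0459, between 0.00236 and 0.895 across its alternatives).

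**Figure D4:**
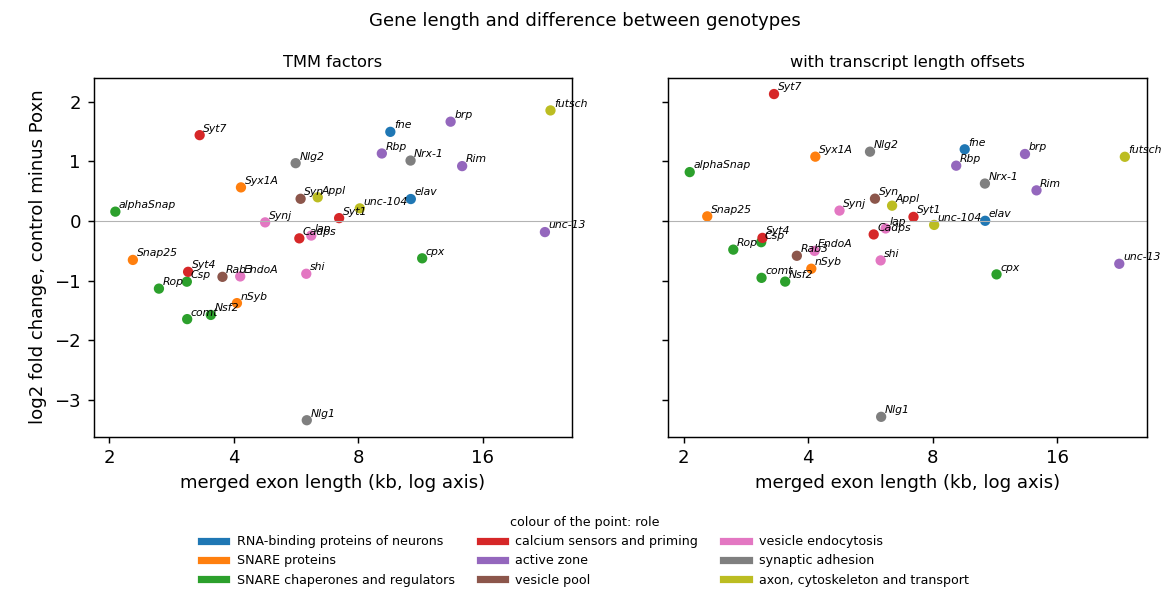
Log2 fold change, control minus Poxn, against merged exon length in kb on a log axis for the 31 genes, coloured by role, with TMM factors on the left and with transcript length offsets on the right. On the left long genes such as futsch and brp sit high and short genes such as comt and Rop sit low (r = 0.49), and on the right the slope is smaller (r = 0.14).

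Grouped by where they are known to act, 16 genes known mainly from neurons had a median log2 fold change of 0.37, with 10 of 16 above 0. The 5 genes of general membrane traffic (Syx1A, shi, Rop, Nsf2 and alphaSnap) had a median of −0.89, with 2 of 5 above 0. In neither group were comt, Csp, Syt4, Syt7, lap, EndoA, Synj, Nlg1, Nlg2 and unc-104. Of these, Syt7 had an unadjusted p under 0.05 (edgeR) toward the control label, and comt, Csp, EndoA and Nlg1 toward the Poxn label. The contrast between the groups thus leaves out comt, which passed the test. With total counts both medians were below 0, at −1.21 and −2.42, on either side of −1.39 for all genes. With length offsets they were 0.17 and −0.48. Of the 16 neuronal genes fne passed the test (edgeR), and of the 5 traffic genes 0 did. At an unadjusted p under 0.05 (edgeR) the neuronal genes gave 6 toward the control label and 1 toward the Poxn label, and the traffic genes 0 and 3, beside 17.8% and 14.1% of all tested genes. DESeq2 called fne, futsch, brp, Rim and Rbp toward the control label and nSyb toward the Poxn label among the first, and Nsf2 and Rop toward the Poxn label among the second, beside 16.8% and 8.08% of all genes.

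A further list of 44 genes of the same machinery, from other synaptotagmins to clathrin and kinesin subunits, held 43 that could be tested. Their median log2 fold change was 0.27, with 25 of 43 above 0, and it was −1.29 with total counts. AP-2sigma (FBgn0043012), a subunit of the general clathrin adaptor, was the 1 gene called, higher in the control-labelled libraries at an adjusted p of 0.0353 (log2 fold change 1.52 ± 0.33 SE, edgeR), with 127, 135 and 118 CPM against 47.3, 47.8 and 37.2 CPM and an adjusted p between 5.27e-07 and 0.953 across the alternatives. Its groups did not overlap on this scale. With length offsets its log2 fold change was 0.55 and with total counts 0.065, and both lost the call, as did leaving out control replicate 1 or any Poxn replicate. In edgeR 0 of the 43 were called as higher in the Poxn-labelled libraries. At an unadjusted p under 0.05 (edgeR) 9 lay toward the control label and 4 toward the Poxn label, beside 17.8% and 14.1% of all tested genes, and DESeq2 called 8 and 3, beside 16.8% and 8.08%.

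Markers of other cells varied between the same libraries. Summed levels of 8 glial genes ran from 1078 to 5250 CPM in the control-labelled libraries and from 1277 to 1522 CPM in the Poxn-labelled ones, most of it from Gs2, the glutamine synthetase of glia, with 0 of 7 tested genes called. Of the 7 glial genes 3 had a log2 fold change above 0, among them Gs2 at 1.20, and 4 below. Among the 4 was repo at −0.53, where every Poxn-labelled library lay above every control-labelled one. The 6 hemocyte genes summed to between 20.1 and 55.6 CPM against 11.6 to 19.8 CPM, without overlap, and 0 of 5 tested genes were called. Among 7 flight muscle genes the sums were 158 to 254 CPM against 137 to 326 CPM, with 0 of 6 called, and among 4 tracheal genes 358 to 2512 CPM against 837 to 978 CPM, with 0 of 4 called. The 5 genes of mechanosensory neurons summed to between 14.5 and 19.6 CPM against 19.0 to 21.3 CPM, with 0 of 4 called. Of the photoreceptor and head list 1 of 6 genes had enough counts to be tested, norpA, a phospholipase C gene, and it was called at a log2 fold change of 2.80 (adjusted p = 0.0306, edgeR, between 8.91e-06 and 0.344 across the alternatives), with list sums of 52.8 to 187 CPM against 11.4 to 20.4 CPM. Besides norpA, the hemocyte gene Pxn and the wing gene vg had an unadjusted p under 0.05 (edgeR) toward the control label. The mechanosensory gene iav did so toward the Poxn label, beside 17.8% and 14.1% of all tested genes. DESeq2 also called Pxn and vg at an adjusted p under 0.05, beside 16.8% and 8.08% of all genes. Levels of vg were 23.6, 14.3 and 13.9 CPM in the control-labelled libraries and 7.93, 5.19 and 8.32 CPM in the Poxn-labelled ones. The part of these cells in the differences of single synaptic genes was not tested.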

How the data were processed

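Poly(A)+ RNA of wings was sequenced in 6 libraries, 3 per genotype, which the labels describe as independent replicates. Per the labels, alignment used STAR 2.4.2a and FlyBase release r6.09 after adapter removal by Trim Galore 0.4.0. The authors deposited raw read counts per gene made with HTSeq, whose version and strand setting are not given in the sources used here. The authors' own comparison table, which holds fold changes, p-values and 6 columns of values per library, was not used. In each file 5 lines that name no gene were left out of library sizes. They held reads on no feature (47.9% to 58.6% of the reads those lines and the genes hold), ambiguous reads (1.24% to 2.69%) and reads with several alignments.

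Genes were kept with filterByExpr (minimum count 10), scaled by TMM, and tested with edgeR 4.0.16 (quasi-likelihood test, R 4.3.3) on all 6 libraries, with Benjamini-Hochberg adjustment over 8973 genes. The prior count was 0.125. Alternatives were RLE factors, total counts, transcript length offsets (lowess span 0.3), DESeq2 1.42.0, limma 3.58.1 voom with quality weights, no filter, a replicate block and leaving out each library. Positions and merged exon lengths came from Ensembl 115 (BDGP6.54), matched by FlyBase identifier for 17229 of 17476 genes. Levels inside a library used counts plus 0.5. All 32 members were named. Of the other synaptic genes, up to 3 with the smallest p in each direction among those called were named, and marker lists were given as counts and sums. The members and lists were chosen with earlier results of these data known. The edgeR fits with TMM and RLE factors, DESeq2 and voom were tested on simulated counts. Intervals cover counting error only, and 3 counts correspond to between 0.0998 and 0.943 CPM.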

Additional observations from a re-analysis of the deposited data

How the results depend on the processing

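13 other settings were tried for each gene of the set. With total counts the log2 fold changes of 14 genes took the opposite sign, at −1.09 for elav, −0.16 for fne, −1.23 for Syx1A, −1.51 for alphaSnap, −1.59 for Syt1, −0.10 for brp, −0.60 for Rim, −0.33 for Rbp, −1.11 for Syn, −0.57 for Nrx-1, −0.32 for Nlg2, −0.035 for futsch, −1.30 for Appl and −1.42 for unc-104. The median was then −1.76 and the calls were 0 higher in the control label and 4 higher in the Poxn label (1.06% and 4.74% of all genes), with 0 other synaptic genes in the control direction. Length offsets gave 0.078 for Snap25, 0.17 for Synj and −0.066 for unc-104, 1 and 0 calls (1.78% and 0.58% of all genes) and 0 other synaptic genes in the control direction. RLE factors gave 0.12 for Synj and 2 and 0 calls (6.20% and 2.21% of all genes). DESeq2 gave 0.12 for Synj, 6 and 5 calls, 1 past the criterion, and 8 and 3 other synaptic genes. With voom, Syt1 was −0.022 and unc-104 −0.23, 3 genes were called in the control direction and 1 in the Poxn direction, Rop and not comt (8.54% and 2.49% of all genes), and the other synaptic genes numbered 5 and 1. Without the filter, alphaSnap was −0.017 and Syt1 −0.12, with 0 and 3 calls (3.41% and 2.25% of all genes) and 2 other synaptic genes in the Poxn direction. The causes of these changes were not tested.

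Leaving out 1 library gave 0 to 5 calls in the control direction and 0 to 9 in the Poxn direction, beside 0.427% to 16.1% and 0.0328% to 12% of all genes, and 0 to 8 and 0 to 4 for the other synaptic genes. The log2 fold change then ran from −0.18 to 0.77 for Appl, −0.40 to 0.41 for Synj, −0.22 to 0.28 for Syt1, −0.37 to 0.97 for Syx1A, −0.28 to 0.36 for alphaSnap, −0.51 to 0.56 for unc-104 and −0.40 to 0.036 for unc-13. Same-numbered libraries deviated with correlations of 0.12, 0.14 and −0.07, so the numbers were not taken to pair libraries. The replicate block left 0 calls in the control direction and 1 in the Poxn direction (3.93% and 2.03% of all genes), and 0 other synaptic genes in the control direction. Depth limited Nlg1 and Nlg2, which had at most 24 counts in a library.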
